A study of Homo sapiens with 18 samples.

Results

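The response of H1299 cells to AceTAGp300CBP-1, the AceTAG compound for p300 and CBP, was compared between cells with and without the tagged p53. Members were the 12 libraries, of 18 in the series, that received this compound or DMSO, in 4 of the 6 groups. The quantity of interest was the interaction, the compound effect in induced cells minus the compound effect in non-induced cells, in log2 units. H1299 is an established lung carcinoma line that makes no p53 protein of its own. The 4 groups of 3 libraries were induced cells with the compound, induced cells with DMSO, non-induced cells with the compound, and non-induced cells with DMSO, all sampled at 24 h. Induced cells carried wild-type p53 under doxycycline control, joined to an HA epitope and to FKBP12F36V, and received doxycycline before the compound or DMSO. The labels name non-induced cells as H1299 alone. They do not say whether those cells carried the construct or received doxycycline, so the tagged p53, the construct and the drug cannot be told apart here. No compound dose is given, nor whether the line is 1 clone or whether replicates were separate cultures, so p-values measure only the spread between these libraries.

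p53 is a transcription factor that switches on genes of cell cycle arrest, cell death, DNA repair and its own feedback. p300 and CBP are acetyltransferases that modify histones and p53 itself. An AceTAG compound is a bifunctional molecule meant to bring such an enzyme to a protein carrying the FKBP12F36V tag. p53 also lowers many cell cycle genes, through p21 and the DREAM repressor complex, which binds promoter elements known as CHR.

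Total counts were 20.2 to 24.2 M in induced libraries with the compound, 22.4 to 24.9 M in induced DMSO libraries, 19.3 to 26.4 M in non-induced libraries with the compound and 9.1 to 26.4 M in non-induced DMSO libraries. Levels are given as CPM, the counts scaled to a common library size after TMM correction. The third induced DMSO library stood apart from its partners, with a score of -42 on the second principal component (16.9% of the variance) where they scored -3.46 and -1.14, and with 0.714% mitochondrially encoded counts against 1.84% and 2.14%. The 3 non-induced libraries with the compound were also spread, at -1.4, -11.4 and -19.9 on the third component (6.41% of the variance). The cells carried the mesenchymal marker VIM at 2400 to 4030 CPM and the keratin KRT18 at 153 to 319 CPM. The epithelial markers EPCAM and CDH1 stayed at or below 0.177 CPM, and the leukocyte marker PTPRC was at 0 in all 12 libraries.

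The interaction was called (adjusted p below 0.05, edgeR quasi-likelihood test with Benjamini-Hochberg adjustment) for 200 of 15618 genes tested, or 1.28%. It was positive for 170 genes (1.09%) and negative for 30 (0.192%), against 1634 genes at an unadjusted p below 0.05. The compound moved 2002 genes (12.8%) in induced cells, 928 up and 1074 down, and 551 genes (3.53%) in non-induced cells, 118 up and 433 down. Sorted by the 3 tests together, 180 genes needed induction (interaction and induced effect called, non-induced effect not called), of which 158 rose and 22 fell with the compound. This class rests on a missed call without induction, and for 40 of the 180 the 95% interval of the non-induced effect did not include 0, above it for 18 and below it for 22. Another 352 genes moved the same way in both states with no called interaction, 39 of them up and 313 down. The compound moved 14 genes only without induction, 3 genes in opposite directions, and 2 genes in the same direction but further with induction. In the lncRNA LAPTM4A-DT, with at most 28 counts in a library, the interaction alone was called. A further 1465 genes were called with induction only and 180 without induction only, with no called interaction, so their dependence on induction is undecided.

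These counts moved by over 1.5 times when single libraries were left out. Without the third induced DMSO library, 307 genes needed induction, 154 of the 180 among them, 860 were shared, 343 of the 352 among them, and 65 moved only without induction, with all 14 among them. The lowest counts of the leave-one-out fits were 118 needing induction, without the second induced library with the compound and likewise without the first non-induced DMSO library, 145 shared, without the second non-induced DMSO library, and 3 moved only without induction, without any of these 3 libraries. Without the second non-induced library with the compound 170 genes were shared, and without the third 167. The 3 genes of opposite direction numbered 31 when replicate 3 of induced DMSO was left out, and 1 to 7 when another library was. The 2 genes moved further with induction numbered 21 and 1 to 3 in the same fits. ELAPOR1 and ABCA12 were just inside the threshold (both adjusted p = 0.048), and LPIN3 (adjusted p = 0.0507) and SCD (adjusted p = 0.0519) just outside it.

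**Figure D1:**
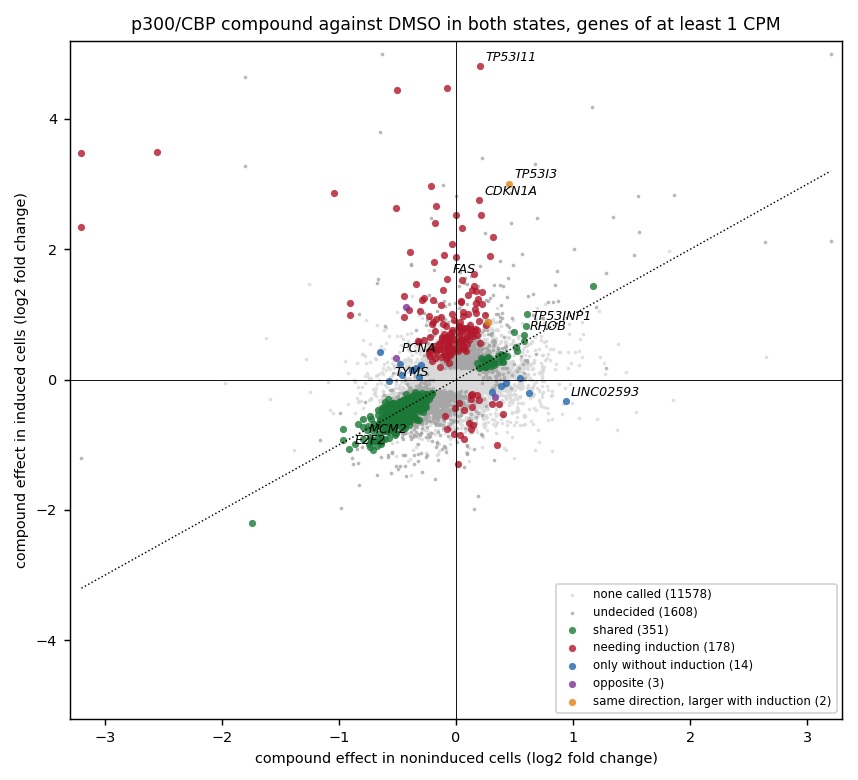
Compound effect (log2 fold change, compound over DMSO) in induced cells on the vertical axis against non-induced cells on the horizontal axis, each point 1 gene with a mean of at least 1 CPM in some group, coloured by class with the number plotted in the legend; points beyond the axes are drawn at their edge. Most genes needing induction lie near the vertical axis, mostly upward, while NSG1, ABCA12 and HES2, at low non-induced counts, lie far to its left. The 351 shared genes plotted lie near the dotted line of equal effects, mostly below 0 on both axes.

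p53 targets made up the largest named group whose response to the compound differed with induction. Of 75 measured members of 3 target lists, 30 (40%) had a called positive interaction, against 1.09% of all genes, and 0 a negative one, against 0.192%. At an unadjusted p below 0.05 there were 46 positive and 0 negative, and DESeq2 and limma-voom likewise called 0 negative. The median interaction was 0.51 over the 75 and -0.001 over all genes. With induction the compound raised 50 of the 75 (66.7%), against 5.94% of all genes. It lowered 2 (2.67%), BID and E2F7, against 6.88% of all genes. Without induction it raised 2 (2.67%), TP53I3 and TP53INP1, against 0.756% of all genes. It lowered 3 (4.0%), PCNA, AEN and E2F7, against 2.77% of all genes. By class, 27 of the 75 (36%) needed induction, against 1.15% of all genes, and 1 moved in both states but further with induction. For 9 of the 27 the 95% interval of the non-induced effect did not include 0, above it for 7, CDKN1A, SESN2 and ZMAT3 among them. With each compound effect fitted on its own 2 groups, 22 needed induction and 5 moved further with it, and leaving out replicate 3 of induced DMSO gave 22 and 10. The mean level was highest in induced cells with the compound for 64 of the 75, against 32.9% of all genes. These lists were drawn up with earlier results of these data known, so their direction is not independent evidence. Leaving out the third induced DMSO library gave 36 such genes in place of 30, and the count ranged from 25 to 36 over the 12 leave-one-out fits.

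CDKN1A, which encodes the cyclin-dependent kinase inhibitor p21, had the largest interaction of the arrest genes. It reached 2340, 2443 and 2345 CPM in induced cells with the compound and 376.8, 329.7 and 347.4 CPM in induced DMSO cells. In non-induced cells it stood at 106.2, 109.8 and 97.44 CPM with the compound and at 92.18, 92.96 and 87.47 CPM with DMSO. The induced groups lay far apart, while the non-induced groups were separate by a few CPM. The effect was 2.76 ± 0.07 (log2 fold change ± SE, as throughout) with induction and 0.20 ± 0.07 without (adjusted p = 0.119), and the interaction was 2.56 ± 0.09 (95% interval 2.36 to 2.76, adjusted p = 8.99e-11). In the files, whose genome build is not given in the sources used here, the gene lies on chromosome 6 from 36676460 to 36687339.

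Among 23 arrest and feedback targets, 5 (21.7%) had a called interaction. Besides CDKN1A these were SESN1 (1.24 ± 0.14, adjusted p = 0.000177) and SESN2 (0.51 ± 0.08, adjusted p = 0.00307), stress proteins that restrain mTORC1, the RNA-binding protein ZMAT3 (0.93 ± 0.10, adjusted p = 6.01e-05) and the kinase PLK2 (0.70 ± 0.13, adjusted p = 0.00917). SESN1 stood at 91.32, 95.65 and 98.44 CPM in induced cells with the compound, 36.09, 39.46 and 34.35 CPM in induced DMSO cells, 16.72, 17.55 and 19.97 CPM in non-induced cells with the compound and 14.25, 16.44 and 19.84 CPM in non-induced DMSO cells. Its induced groups did not overlap, and its non-induced groups did.

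MDM2, whose product marks p53 for degradation, moved little by comparison. It had 679.2, 743.8 and 711.8 CPM in induced cells with the compound and 563.2, 600 and 578.4 CPM in induced DMSO cells, a rise of 0.29 ± 0.05 (adjusted p = 0.00201). Non-induced cells had 69.55, 72.81 and 76.05 CPM with the compound and 69.8, 70.08 and 68.65 CPM with DMSO, and these groups overlapped. The interaction of MDM2 was 0.23 ± 0.08 (95% interval 0.06 to 0.40, adjusted p = 0.268). BTG2, an antiproliferative gene, missed the threshold with an interaction of 0.97 ± 0.24 (adjusted p = 0.0599) while its effect with induction was called (1.15 ± 0.11, adjusted p = 4.83e-06). BTG2 had 59.79, 63.78 and 62.43 CPM in induced cells with the compound, 28.92, 28.49 and 26.11 CPM in induced DMSO cells, 2.22, 2.65 and 1.42 CPM in non-induced cells with the compound and 1.99, 1.5 and 2.37 CPM in non-induced DMSO cells. CCNG1, which encodes cyclin G1, had an interaction of 0.23 ± 0.08 (adjusted p = 0.239).

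**Figure D2:**
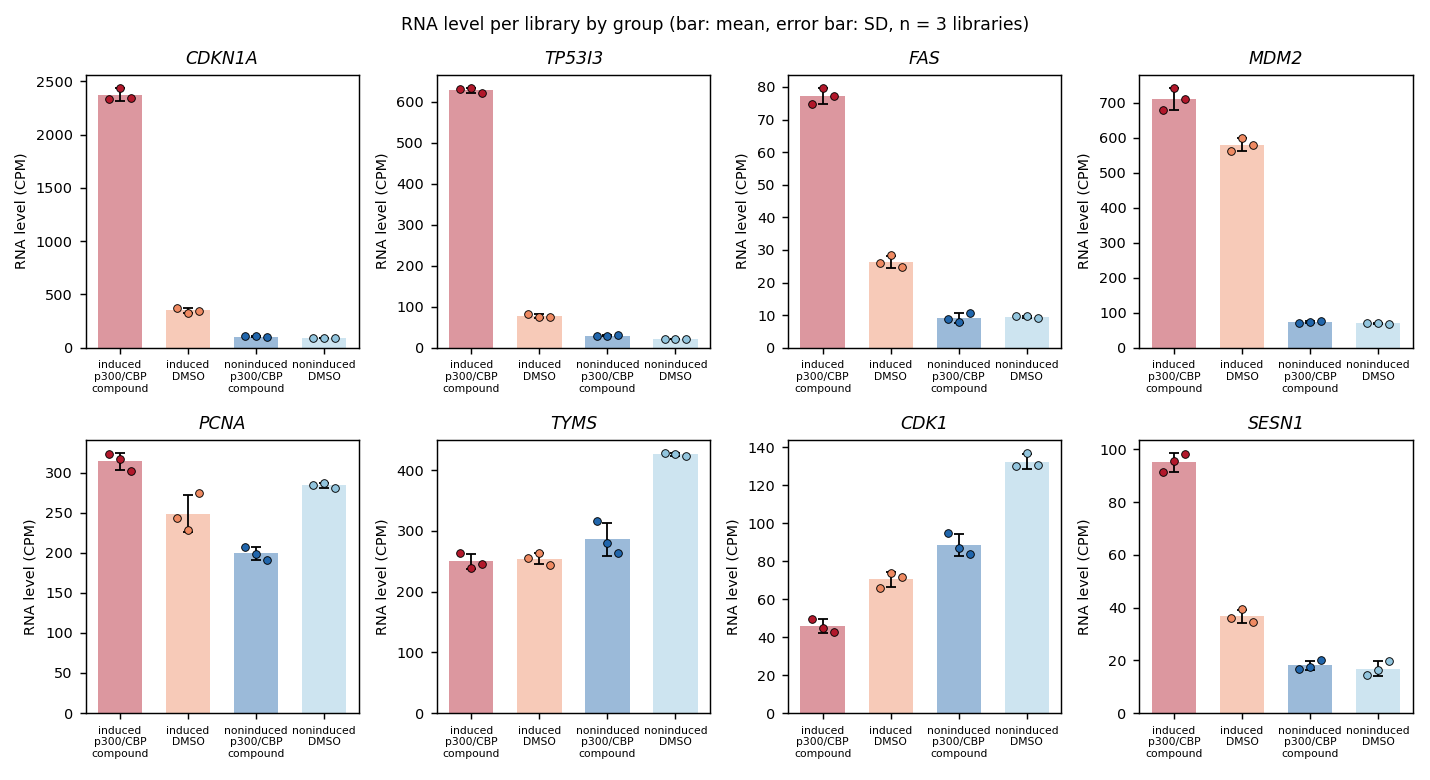
RNA level in CPM on the vertical axis for 8 genes, 1 panel each, by group on the horizontal axis; points are the 3 libraries, bars their mean and error bars the SD. CDKN1A, TP53I3, FAS and SESN1 are highest by far in induced cells with the compound, MDM2 is high in both induced groups, and CDK1 and TYMS are highest in non-induced DMSO cells.

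In the death and autophagy list 11 of 24 targets (45.8%) had a called interaction. TP53I3, an NADPH quinone oxidoreductase, had 632.2, 632.8 and 621.8 CPM in induced cells with the compound and 83.51, 76.09 and 75.01 CPM in induced DMSO cells. Non-induced cells had 27.55, 28.72 and 30.29 CPM with the compound and 21.26, 21.15 and 20.74 CPM with DMSO. No group of TP53I3 overlapped another, and with the glycolipid anchor enzyme PGAP1 it made up the class that moved in both states but further with induction. Its effects were 3.01 ± 0.06 with induction and 0.45 ± 0.06 without (adjusted p = 0.00154), and the interaction was 2.56 ± 0.08 (adjusted p = 4.46e-11). The gene lies on chromosome 2 from 24077433 to 24085861 in the files.

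TP53I11, near silent without induction, had the largest interaction of that list, 4.60 ± 0.54 (adjusted p = 0.000211). It had 92.17, 99.65 and 97.99 CPM in induced cells with the compound, 3.58, 3.36 and 3.35 CPM in induced DMSO cells, 0.497, 0.512 and 0.101 CPM in non-induced cells with the compound and 0.192, 0.435 and 0.451 CPM in non-induced DMSO cells. With 2 to 13 counts in the non-induced libraries, the size of the TP53I11 interaction is uncertain. The death receptor FAS had 74.76, 79.81 and 77.31 CPM in induced cells with the compound, 26.14, 28.4 and 24.77 CPM in induced DMSO cells, 8.69, 7.91 and 10.77 CPM in non-induced cells with the compound and 9.62, 9.80 and 9.24 CPM in non-induced DMSO cells. Both genes had induced groups that lay apart and non-induced groups that overlapped. The interaction of FAS was 1.63 ± 0.14 (adjusted p = 1.24e-05). PLTP, which transfers phospholipids between lipoproteins, followed at 2.27 ± 0.11 (adjusted p = 2.75e-09) and CYFIP2, a regulator of actin, at 1.19 ± 0.10 (adjusted p = 1.02e-05). The mitochondrial death effectors BBC3 (0.85 ± 0.19, adjusted p = 0.0291) and BAX (0.70 ± 0.15, adjusted p = 0.0214) and the death receptor TNFRSF10B (0.62 ± 0.08, adjusted p = 0.000408) also needed induction. TP53INP1, an autophagy gene, was shared: it rose by 0.83 ± 0.10 with induction and 0.60 ± 0.12 without, with an interaction of 0.23 ± 0.15 (adjusted p = 0.641).

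Of 28 repair and metabolism targets, 14 (50%) had a called interaction. Among the repair genes were POLH, the translesion polymerase eta (1.20 ± 0.11, adjusted p = 2.73e-05), and RRM2B, a ribonucleotide reductase subunit (0.71 ± 0.08, adjusted p = 8.69e-05). POLH had 77.69, 78.86 and 75.68 CPM in induced cells with the compound, 40.18, 41.9 and 36.11 CPM in induced DMSO cells, 30.15, 26.91 and 24.37 CPM in non-induced cells with the compound and 32.41, 31.54 and 31.56 CPM in non-induced DMSO cells. Its non-induced groups were apart in the other direction, though that difference was not called (-0.23 ± 0.08, adjusted p = 0.161). KITLG, the ligand of the receptor KIT, had an interaction of 1.99 ± 0.22 (adjusted p = 0.000138), the hydrolase CMBL 1.47 ± 0.14 (adjusted p = 2.73e-05) and SAC3D1 1.73 ± 0.25 (adjusted p = 0.0014). For SAC3D1 the third induced DMSO library read 35.34 CPM where its partners read 21.09 and 18.67 CPM. GLS2, a mitochondrial glutaminase, was called at 1.62 ± 0.34 (adjusted p = 0.0252), but 8 of the 12 leave-one-out fits lost the call, with an adjusted p of up to 0.131. Not called were FDXR, the mitochondrial ferredoxin reductase (0.54 ± 0.25, adjusted p = 0.454), the damage sensor DDB2 (0.45 ± 0.13, adjusted p = 0.146) and the stress cytokine GDF15 (0.62 ± 0.49, adjusted p = 0.692).

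**Figure D3:**
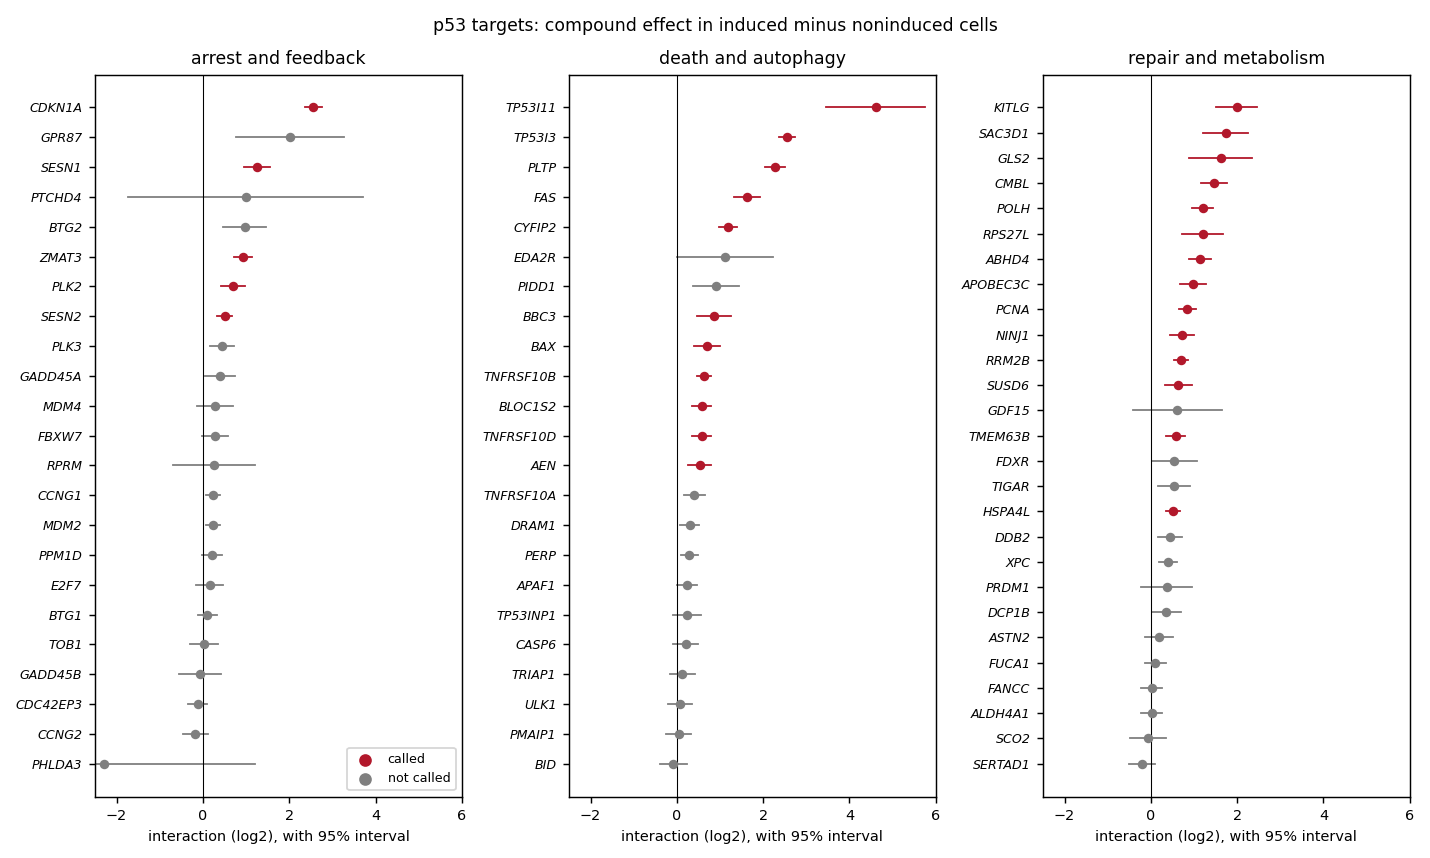
Interaction in log2 units (compound effect in induced minus non-induced cells, horizontal axis) with its 95% interval for the 73 p53 targets with a mean of at least 1 CPM in some group, in 3 panels by role; red marks a called interaction and grey one that was not called. Each of the 30 red points lies right of 0, from HSPA4L at 0.51 to TP53I11 at 4.60, and MDM2 lies at 0.23 among the grey ones; the interval of PHLDA3 runs past the left edge.

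Most of the 158 risers lay outside the target lists. The lists are not complete, so a gene outside them can still be a p53 target. IGFBP3, which binds insulin-like growth factors, had 15.72, 14.12 and 13.98 CPM in induced cells with the compound, 0.477, 1.19 and 0.344 CPM in induced DMSO cells, 0.612, 0.279 and 1.06 CPM in non-induced cells with the compound and 1.26, 0.791 and 0.338 CPM in non-induced DMSO cells. The compound groups of IGFBP3 thus differed between states while the DMSO groups overlapped, with an interaction of 4.95 ± 0.60 (adjusted p = 0.00025). SEPTIN4 (4.55 ± 0.68, adjusted p = 0.002), which encodes a septin, DPYSL4 (3.18 ± 0.29, adjusted p = 2e-05), the ubiquitin ligase RNF144B (3.15 ± 0.50, adjusted p = 0.00307) and the matrix proteoglycan VCAN (2.84 ± 0.36, adjusted p = 0.000418) followed. ANKRD20A11P, at 3.91 ± 0.64 (adjusted p = 0.00387), belongs to a family of near-identical copies among which reads may be split. Its call was lost without the first non-induced DMSO library (adjusted p = 0.0705). SEPTIN4 had 3 to 10 counts, RNF144B 5 to 9, ANKRD20A11P 3 to 22 and IGFBP3 3 to 33 over the non-induced libraries. The sizes of their interactions are therefore uncertain. Of the 158 risers 16 (10.1%) had both non-induced means below 1 CPM, against 14.3% of all genes.

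NSG1 and ABCA12 were seen almost only in induced cells, and HES2 almost only in induced cells with the compound. NSG1 had 156, 213 and 186 counts in induced cells with the compound and 22, 11 and 20 in induced DMSO cells, against 0, 0 and 0 in non-induced cells with the compound and 2, 1 and 3 in non-induced DMSO cells. ABCA12, a lipid transporter, had 116, 100 and 158 counts in induced cells with the compound and 25, 20 and 33 in induced DMSO cells, against 0, 0 and 0 in non-induced cells with the compound and 3, 2 and 0 in non-induced DMSO cells. The non-induced groups of both are at or under the floor of 3 counts a library, so no fold is given there, and their fitted interactions rest on such values. HES2 had 39, 46 and 68 counts in induced cells with the compound and 6, 3 and 5 in induced DMSO cells, and 1, 0 and 0 with the compound and 5, 2 and 0 with DMSO in non-induced cells. Its induced DMSO counts lie near the floor of 3, so the size of its rise with induction is uncertain. With induction the rise of NSG1 was 3.47 ± 0.27 (adjusted p = 1.96e-06), that of ABCA12 2.34 ± 0.25 (adjusted p = 3.79e-05) and that of HES2 3.49 ± 0.41 (adjusted p = 4.03e-05). The interaction of ABCA12 lost its call in 11 of the 12 leave-one-out fits, with an adjusted p of up to 0.304. NSG1 lost it without the first or the third non-induced DMSO library (adjusted p of up to 0.0836), and HES2 without the first (adjusted p = 0.298).

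Some single genes among the risers needing induction are given next, chosen after their values were seen and not from a list. JAG2, a ligand of Notch receptors, had 75.1, 84.21 and 74.87 CPM in induced cells with the compound, 27.53, 26.41 and 36.58 CPM in induced DMSO cells, 15.92, 17.22 and 13 CPM in non-induced cells with the compound and 17.78, 15.57 and 16.68 CPM in non-induced DMSO cells. Its interaction was 1.49 ± 0.18 (adjusted p = 0.000211), and that of the receptor NOTCH1 was 1.08 ± 0.17 (adjusted p = 0.00239). EFNB1, the ligand ephrin B1, had an interaction of 1.46 ± 0.18 (adjusted p = 0.000316) and the ephrin receptor EPHB4 one of 0.91 ± 0.14 (adjusted p = 0.00216). FGFR3, a receptor of fibroblast growth factors (1.48 ± 0.17, adjusted p = 0.000167), and the cytokine IL7 (1.53 ± 0.27, adjusted p = 0.0067) showed the same pattern. ATF3, a stress transcription factor, had an interaction of 0.81 ± 0.15 (adjusted p = 0.011). The cytokine LIF, of the MAPK feedback list, was called at 0.89 ± 0.19 (adjusted p = 0.029) but lost the call in 8 of the 12 leave-one-out fits, with an adjusted p of up to 0.131.

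The 22 genes that fell only with induction changed less, with a median interaction of -0.68. CCND1, which encodes the G1 cyclin D1, had 391.3, 382.5 and 351.7 CPM in induced cells with the compound, 530.8, 541.6 and 581.3 CPM in induced DMSO cells, 797, 769.9 and 698.5 CPM in non-induced cells with the compound and 829.9, 790.3 and 797.2 CPM in non-induced DMSO cells. Its interaction was -0.46 ± 0.09 (adjusted p = 0.016), and the gene was chosen after its values were seen. ANGPTL4, a lipoprotein lipase inhibitor, had 92.07, 92.52 and 88.16 CPM in induced cells with the compound, 136.7, 138.5 and 166.6 CPM in induced DMSO cells, 45.07, 43.94 and 37.42 CPM in non-induced cells with the compound and 40.19, 38.42 and 35.28 CPM in non-induced DMSO cells (-0.84 ± 0.12, adjusted p = 0.00174). ANGPTL4 was thus lower with the compound in induced cells, yet above both non-induced groups. Of 15 MAPK feedback genes, 1 (6.67%) had a called higher interaction, LIF, against 1.09% of all genes, and 2 (13.3%) a lower one, SPRY4 and PHLDA1, against 0.192%. SPRY4 (-0.53 ± 0.08, adjusted p = 0.0024) and PHLDA1 (-0.43 ± 0.08, adjusted p = 0.0102), the neurotensin receptor NTSR1 (-0.82 ± 0.14, adjusted p = 0.00543), the peroxisomal transporter ABCD2 (-0.92 ± 0.16, adjusted p = 0.00616) and the myosin MYH15 (-0.89 ± 0.16, adjusted p = 0.0093) fell likewise. VIPR1, a receptor of vasoactive intestinal peptide (-1.31 ± 0.28, adjusted p = 0.0262), CNIH3 (-0.88 ± 0.19, adjusted p = 0.0292), the antisense transcript BSG-AS1 (-0.97 ± 0.21, adjusted p = 0.0325) and ENSG00000261253 (-1.36 ± 0.30, adjusted p = 0.0296) stood at 0.817 to 9.79 CPM and lost their calls in 8 or 9 of the 12 leave-one-out fits, with an adjusted p of up to 0.126. Reads of BSG-AS1 cannot be told from those of BSG, since strand handling is unstated.

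Cell cycle genes fell with the compound in both states, whether p53 was induced or not. Of 40 S phase and replication genes, 35 (87.5%) fell with induction, against 6.88% of all genes, and 38 (95%) fell without, against 2.77%. By class 34 of the 40 (85%) were shared, against 2.25% of all genes, a class defined in part by an uncalled interaction. Of 36 mitotic genes, 34 (94.4%) fell with induction and 32 (88.9%) without, and 31 (86.1%) were shared. Interactions were called for 0 of the 36 in edgeR, DESeq2 or limma-voom. At an unadjusted p below 0.05 there were 5 lower, and edgeR with no filter on low counts called 1 lower. With the third induced DMSO library left out, 36 S phase and 35 mitotic genes were shared, and over the 12 leave-one-out fits the counts ranged from 25 to 36 and from 21 to 35. The mean level was lowest in induced cells with the compound, next in induced DMSO cells, next in non-induced cells with the compound and highest in non-induced DMSO cells for 37 of the 40 S phase genes and 34 of the 36 mitotic genes, against 12.5% of all genes. In bulk RNA, fewer cells of a cycle phase and less RNA per cell cannot be told apart.

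CDK1, the kinase that drives entry into mitosis, had 49.69, 44.99 and 42.47 CPM in induced cells with the compound, 65.97, 73.57 and 71.45 CPM in induced DMSO cells, 94.84, 86.77 and 83.59 CPM in non-induced cells with the compound and 129.9, 137 and 130.4 CPM in non-induced DMSO cells. No group of CDK1 overlapped another. The compound effect was -0.62 ± 0.07 with induction and -0.58 ± 0.07 without (adjusted p = 0.000688), and the interaction was -0.04 ± 0.10 (95% interval -0.25 to 0.18, adjusted p = 0.92). MCM2, a subunit of the replicative helicase, had 59.93, 53.8 and 51.21 CPM in induced cells with the compound, 98.27, 97.42 and 113.4 CPM in induced DMSO cells, 166.5, 139.7 and 107.1 CPM in non-induced cells with the compound and 234.6, 241.1 and 241.8 CPM in non-induced DMSO cells. Its effects were -0.91 ± 0.12 and -0.79 ± 0.12, and the third induced DMSO library lay above the third non-induced one with the compound.

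Others among the largest shared falls were the replication transcription factor E2F2 (-1.07 ± 0.13 with induction and -0.91 ± 0.11 without), the CDK1 inhibitory kinase PKMYT1 (-0.99 ± 0.17 and -0.86 ± 0.16, in that order), the recombination protein RAD54L (-0.99 ± 0.14 and -0.74 ± 0.13) and, at no more than 2.30 CPM, the telomerase subunit TERT (-2.19 ± 0.50 and -1.74 ± 0.42). E2F7, a repressor of E2F targets and itself a p53 target, fell by 0.68 on the log2 scale with induction and by 0.84 without. For 283 of the 313 shared fallers the 95% interval of the interaction lay within 1.5-fold either way. The median effect of the 313 was -0.50 with induction and -0.46 without. The limit of 1.5-fold, 0.585 in log2 units, is wider than these medians. As the class also requires an uncalled interaction, the intervals do not show equal effects.

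**Figure D4:**
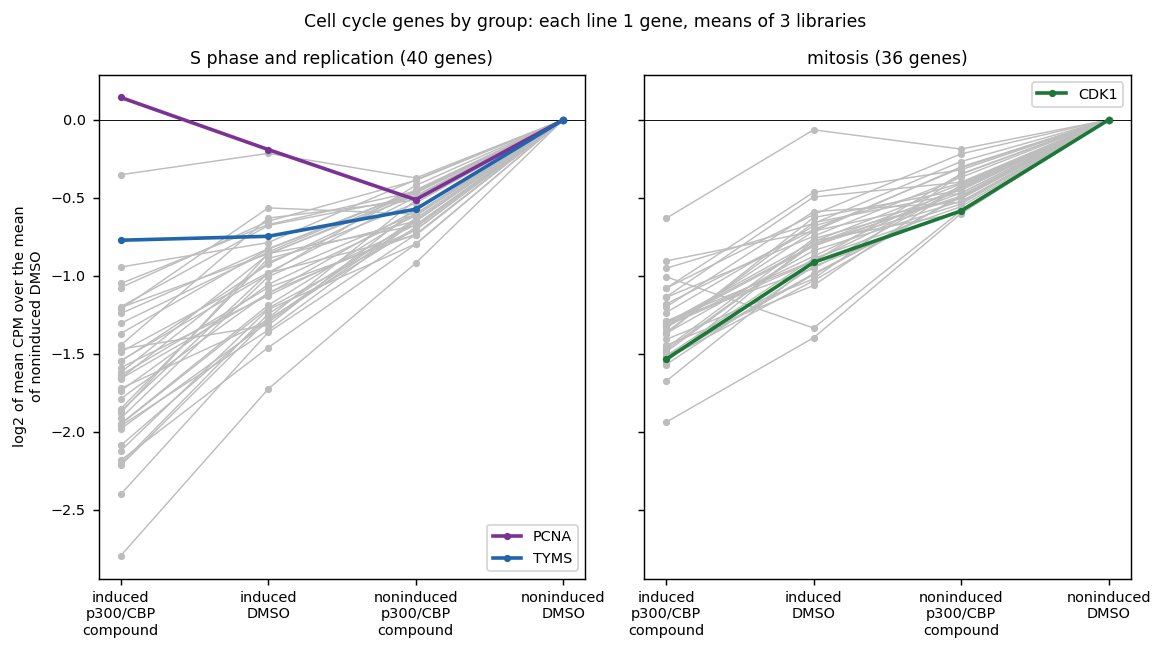
Mean CPM of each gene over its mean in non-induced DMSO cells, as log2, on the vertical axis, by group on the horizontal axis; each line is 1 gene of the S phase (40) or mitosis (36) list and each point the mean of 3 libraries. Lines climb from induced cells with the compound on the left to non-induced DMSO cells on the right, while PCNA lies above 0 in induced cells with the compound and TYMS is about level between both induced groups.

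The promoters of the shared fallers were read for motifs in RefSeq windows of GRCh38.p14, from 250 bases before to 50 bases after the start. The CHR was searched as TTTGAA or TTCGAA on both strands and the CCAAT box as CCAAT on both strands, and the 2 can share 1 base at most. A gene counted as matched where any of its windows held the letters. Windows were found for 11178 of the 15618 genes tested and 261 of the 313 shared fallers. Shares are of genes with a window. A CHR match lay in 37.2% of shared fallers, against 15.2% of all tested genes, and in 20.8% of the risers needing induction. Within the cell cycle lists it lay in 73.3% of 30 mitotic genes and in 5.56% of 36 S phase genes. CCAAT was found in 61.3% of shared fallers, 76.7% of mitotic genes, 61.1% of S phase genes, 42.5% of the risers needing induction and 42.9% of all tested genes. The mean GC content was 64.4% in shared fallers and 64.6% in all. A match is a description of letters, not a site in use. The p53 response element was searched by exact letters, as a pair of 10-base sites with 0 or 1 base between them. It matched in 3 of the 11178 genes (DDB2, PTCHD4 and LNCTAM34A), none of which had a called interaction. In the p53 target lists 2 of the 62 genes with a window matched (3.23%), against 0.0268% of all tested genes. So strict a pattern in so short a window cannot show whether the other genes lack p53 sites.

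Windows of 3 mitotic genes that fell in both states are printed as examples, chosen after the motif counts were seen. Capitals mark matches to CHR and CCAAT on either strand, and positions give the first base of a match, counted from the start. PLK1, a mitotic kinase, has TTTGAA at -29 (chr16:23678639-23678938, plus strand). CDC20, an activator of the anaphase-promoting complex, has 2 CHR matches, at -178 and -65 (chr1:43358731-43359030, plus strand). CDK1 has 3, at -69, -13 and 10 (chr10:60778228-60778527, plus strand).
PLK1: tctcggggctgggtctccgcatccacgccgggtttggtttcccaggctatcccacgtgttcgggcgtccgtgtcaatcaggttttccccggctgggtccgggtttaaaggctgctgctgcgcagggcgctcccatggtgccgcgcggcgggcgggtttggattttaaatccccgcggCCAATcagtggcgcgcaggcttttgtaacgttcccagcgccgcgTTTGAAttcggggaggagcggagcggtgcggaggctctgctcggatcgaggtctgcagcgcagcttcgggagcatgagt
CDC20: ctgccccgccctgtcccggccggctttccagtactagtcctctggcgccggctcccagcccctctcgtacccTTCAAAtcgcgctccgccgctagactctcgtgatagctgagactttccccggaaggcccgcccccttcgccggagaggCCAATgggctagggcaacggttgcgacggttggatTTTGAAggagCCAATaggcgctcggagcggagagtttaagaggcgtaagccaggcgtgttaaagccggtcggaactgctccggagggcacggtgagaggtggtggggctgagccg
CDK1: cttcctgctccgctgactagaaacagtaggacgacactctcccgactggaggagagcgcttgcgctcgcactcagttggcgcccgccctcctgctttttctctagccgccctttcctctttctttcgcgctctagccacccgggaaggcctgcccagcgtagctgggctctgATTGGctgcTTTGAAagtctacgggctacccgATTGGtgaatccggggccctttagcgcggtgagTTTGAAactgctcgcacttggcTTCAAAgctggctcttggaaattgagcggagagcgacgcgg
PLK1 fell by 0.64 on the log2 scale with induction and by 0.40 without, with an interaction of -0.24 ± 0.13 (adjusted p = 0.561). CDC20 fell by 0.61 with induction and by 0.53 without, with an interaction of -0.08 ± 0.11 (adjusted p = 0.828).

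The 39 genes that rose in both states included the guanine nucleotide switch RHOB, with 59.64, 62.97 and 58.28 CPM in induced cells with the compound, 35.53, 36.06 and 41.35 CPM in induced DMSO cells, 51, 51.53 and 47.58 CPM in non-induced cells with the compound and 35.36, 33.36 and 31.34 CPM in non-induced DMSO cells. Both compound groups of RHOB lay above both DMSO groups, with effects of 0.68 ± 0.07 with induction and 0.58 ± 0.08 without. The axonemal gene DNAI3 rose by 1.43 ± 0.20 and 1.17 ± 0.28, the presynaptic gene PCLO by 1.01 ± 0.12 and 0.61 ± 0.13, the circadian repressor BHLHE40 by 0.73 ± 0.08 and 0.49 ± 0.09, and the sterol reductase TM7SF2 by 0.50 ± 0.07 and 0.52 ± 0.08, each first with and then without induction. GPR155 (0.59 ± 0.11 and 0.58 ± 0.13) and CREBRF (0.44 ± 0.11 and 0.52 ± 0.12) rose as well. Each of these had an interaction that was not called, the largest being 0.41 ± 0.18 for PCLO (adjusted p = 0.43).

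PCNA, the sliding clamp of DNA polymerases and a p53 target as well as an S phase gene, moved in opposite directions. It had 322.6, 317.1 and 301.8 CPM in induced cells with the compound and 243.5, 228.9 and 274.3 CPM in induced DMSO cells, a rise of 0.33 ± 0.06 (adjusted p = 0.00259). In non-induced cells it had 207.5, 198.6 and 191.5 CPM with the compound and 284.3, 286.6 and 281.2 CPM with DMSO, a fall of 0.51 on the log2 scale (SE 0.06, adjusted p = 0.000688). No pair of groups under comparison overlapped, and the interaction was 0.85 ± 0.09 (95% interval 0.65 to 1.04, adjusted p = 8.69e-05). The gene lies on chromosome 20 from 5114953 to 5126626 in the files. The pseudogene ANKRD20A5P, of the same family as ANKRD20A11P, also rose with induction (1.11 ± 0.10) and fell without (-0.43 ± 0.11). ALDH3B1, an aldehyde dehydrogenase, fell with induction (-0.27 ± 0.08, adjusted p = 0.0443) and rose without (0.33 ± 0.08, adjusted p = 0.0385), with an interaction of -0.60 ± 0.12 (adjusted p = 0.0144). The call of ALDH3B1 was lost without the third induced library with the compound or the first non-induced DMSO library, with an adjusted p of up to 0.0606.

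Of the 14 genes moved only without induction, 8 fell and 6 rose. TYMS, the thymidylate synthase of S phase, had 264.2, 239.6 and 245.4 CPM in induced cells with the compound, 254.8, 263 and 244.6 CPM in induced DMSO cells, 316.8, 279.5 and 263.6 CPM in non-induced cells with the compound and 428.2, 427.2 and 423.5 CPM in non-induced DMSO cells. Both induced groups of TYMS overlapped, while the non-induced groups lay apart. The compound effect was -0.03 ± 0.07 with induction (adjusted p = 0.835) and -0.57 ± 0.07 without (adjusted p = 0.000688), and the interaction was 0.55 ± 0.09 (adjusted p = 0.00522). The gene lies on chromosome 18 from 657653 to 673578 in the files.

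AEN, the p53-induced exonuclease, had 109.7, 107 and 97.34 CPM in induced cells with the compound, 102.7, 99.67 and 97.98 CPM in induced DMSO cells, 43.31, 37.99 and 31.86 CPM in non-induced cells with the compound and 52.14, 51.74 and 52.75 CPM in non-induced DMSO cells. Its interaction of 0.53 ± 0.12 (adjusted p = 0.0444) went with a fall without induction, and 10 of the 12 leave-one-out fits lost the call, with an adjusted p of up to 0.145. PA2G4, a growth regulator of ribosome synthesis, kept its call in every leave-one-out fit, as did TYMS (0.52 ± 0.10, adjusted p = 0.011, for PA2G4). The other fallers were the nucleoside transporter SLC29A1 (0.53 ± 0.11), the glucose transporter SLC2A1 (0.36 ± 0.08), the mitochondrial nuclease MGME1 (0.51 ± 0.11), the collagen COL27A1 (1.07 ± 0.23) and ANKRD13B (0.72 ± 0.17), given as interactions with adjusted p from 0.0182 for SLC29A1 to 0.0453 for ANKRD13B. Each of these 5 lost its call in 6 to 9 of the leave-one-out fits. With induction the 95% intervals of COL27A1, MGME1 and PA2G4 lay above 0, though none of these effects was called.

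Among the 6 risers was MXD4, an antagonist of MYC, with 120.1, 117.9 and 123.7 CPM in induced cells with the compound, 122.9, 114.1 and 139.4 CPM in induced DMSO cells, 108.1, 109.5 and 106.4 CPM in non-induced cells with the compound and 77.62, 82.6 and 81.5 CPM in non-induced DMSO cells. Non-induced DMSO cells alone stood low (interaction -0.48 ± 0.09, adjusted p = 0.0156), and 3 of the 12 leave-one-out fits lost the call, with an adjusted p of up to 0.0639. The lncRNA LINC02593 had the largest interaction of the class, -1.27 ± 0.24 (adjusted p = 0.0125), and kept its call in every leave-one-out fit, at 3.37 to 9.57 CPM over the 12 libraries. PDCD4, an inhibitor of translation (-0.48 ± 0.11, adjusted p = 0.0442), PNRC1, a nuclear receptor coactivator (-0.52 ± 0.12, adjusted p = 0.0431), the intermediate filament gene SYNM (-0.49 ± 0.10, adjusted p = 0.0182) and SAMD15 (-0.82 ± 0.18, adjusted p = 0.0262) lost theirs in 5 to 9 fits. With induction the 95% interval of SYNM lay below 0 (-0.33 to -0.04), though that effect was not called.

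**Figure D5:**
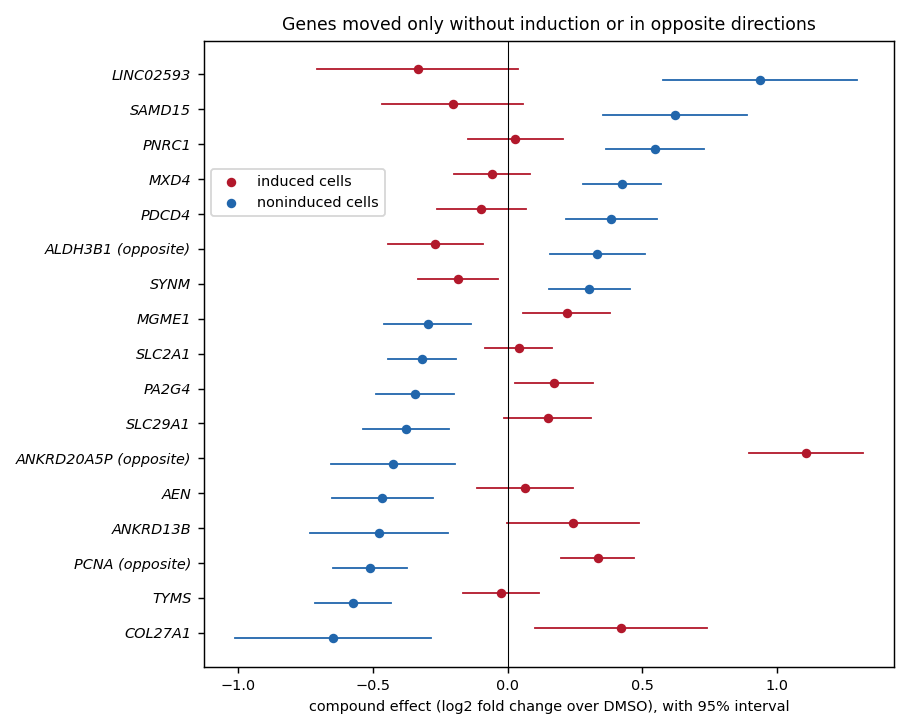
Compound effect (log2 fold change over DMSO, horizontal axis) with its 95% interval in induced cells (red) and non-induced cells (blue) for the 14 genes moved only without induction and the 3 moved in opposite directions, ordered by the effect without induction. The induced effect of TYMS lies at -0.03 beside -0.57 without induction, and PCNA lies at 0.33 beside -0.51.

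For the enzymes the compound is named for and the tag's parent protein, no interaction was called. EP300, which encodes p300, had 103.9, 109.5 and 112.9 CPM in induced cells with the compound, 97.99, 102.5 and 66.55 CPM in induced DMSO cells, 105.4, 105.5 and 103.1 CPM in non-induced cells with the compound and 88.69, 95.49 and 98.07 CPM in non-induced DMSO cells. Its interaction was 0.13 ± 0.16 (95% interval -0.20 to 0.47, adjusted p = 0.807) and that of CREBBP, which encodes CBP, 0.09 ± 0.12 (adjusted p = 0.827). Both changed sign without the third induced DMSO library, at -0.05 for EP300 and -0.03 for CREBBP. KAT2A and KAT2B, the acetyltransferases GCN5 and PCAF, had interactions of -0.01 ± 0.12 (adjusted p = 0.977) and 0.23 ± 0.13 (adjusted p = 0.568). FKBP1A, which encodes FKBP12, had one of 0.12 ± 0.08 (adjusted p = 0.639). None of 16 acetyltransferase genes and 12 immunophilin genes had a called interaction in edgeR, DESeq2 or limma-voom, where 1.28% of all genes did in edgeR, and nothing is read from counts of 0 in lists this short. With no filter on low counts edgeR called 1 immunophilin gene lower. At an unadjusted p below 0.05 there were 0 acetyltransferase genes and 1 immunophilin gene.

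Other gene groups held fewer called interactions than the p53 target lists, though some shares lay above that of all genes. Of 30 MYC and ribosome biogenesis genes, 12 (40%) fell with induction, against 6.88% of all genes, and 5 (16.7%) without, against 2.77%. Of these 30 genes 3 (10%) were shared, against 2.25% of all genes, and 0 had a called interaction in edgeR, against 4 higher at an unadjusted p below 0.05, 2 in DESeq2 and 3 in limma-voom. Among 25 genes of the ATF4 and unfolded protein responses, ATF3 and SESN2 (8%) had a called higher interaction, against 1.09% of all genes. TGF-beta and matrix genes had IGFBP3 and VCAN (11.8%) called higher of 17. Hypoxia and glycolysis genes had SLC2A1 (4.35%) called higher and ANGPTL4 (4.35%) lower of 23, the latter against 0.192% of all genes. Of 24 sterol and fatty acid synthesis genes, 1 (4.17%) was called lower. In lists this short 1 or 2 called genes make up such shares. Lower sterol genes numbered 10 at an unadjusted p below 0.05, 4 in DESeq2 and 6 in limma-voom. In the interferon list 0 of 14 and in the inflammatory list 0 of 11 were called in edgeR and in DESeq2, with 1 each at an unadjusted p below 0.05, and limma-voom called 1 interferon gene. The 15 mitochondrially encoded transcripts had a median interaction of 0.36 with 0 called in edgeR, DESeq2 or limma-voom and 0 at an unadjusted p below 0.05, but edgeR with no filter on low counts called 9 of them higher. Their share of counts was lowest in the third induced DMSO library.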

How the data were processed

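The authors deposited raw counts per gene in tables of several libraries each, with induction and treatment in the column names, per the file headers. The submitters' processing notes name StringTie and DESeq2. The library kit was directional, per the labels' protocols. The aligner, genome build, annotation and use of strand in counting are not given in the sources used here. Tables were joined by gene identifier into 60622 genes, with 1 gene left out because its line is broken. Genes were filtered with filterByExpr, scaled by TMM and fitted in edgeR 4.0.16 (R 4.3.3) with 1 quasi-likelihood model for the 4 groups and no covariate. Contrasts gave the compound effect in each state and their difference. A gene was called at a Benjamini-Hochberg adjusted p below 0.05, and SE was the log2 fold change over the root of F. The fit was tested on simulated data.

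Alternatives were DESeq2 1.42.0, its size factors, other filters, all 6 groups, each compound effect on its own 2 groups, a replicate block, limma 3.58.1 and leaving out each library. Each library's counting floor was 3 counts, for counting error only.

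Members and gene lists were chosen with earlier results of these data known. Genes were named by size of effect among those past the threshold: the 10 largest interactions each way at 1 CPM or more, 8 shared genes each way, up to 8 each way moved only without induction, all of opposite sign, up to 4 called members of each list, and CDKN1A, MDM2, the enzymes' genes and FKBP1A. A few genes that this rule names are not reported here. The others named were chosen after their values were seen, as were the promoters printed, from RefSeq.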

Additional observations from a re-analysis of the deposited data

Results flagged for a closer look

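For 51 named genes the compound effect differed between induced and non-induced cells by the test of the interaction itself (edgeR quasi-likelihood test, Benjamini-Hochberg adjusted p below 0.05, 3 libraries a group). The values are interactions in log2 units, positive where the compound effect was higher with induction. Among p53 targets they were 2.56 for CDKN1A, 2.56 for TP53I3, 4.60 for TP53I11, 2.27 for PLTP, 1.99 for KITLG, 1.73 for SAC3D1, 1.63 for FAS, 1.62 for GLS2, 1.47 for CMBL, 1.24 for SESN1, 0.93 for ZMAT3, 0.70 for PLK2, 0.51 for SESN2, 0.85 for PCNA and 0.53 for AEN. Among genes outside the p53 target lists that rose with induction they were 4.95 for IGFBP3, 4.55 for SEPTIN4, 3.91 for ANKRD20A11P, 3.18 for DPYSL4, 3.15 for RNF144B, 2.84 for VCAN, 1.53 for ANKRD20A5P, 0.89 for LIF and 0.81 for ATF3. Such genes can still be p53 targets, as the lists are not complete. The fitted 7.71 for NSG1, 6.30 for ABCA12 and 6.05 for HES2 rest on non-induced libraries with 0 to 5 counts and are no measure of size. Low non-induced counts also make the sizes uncertain for SEPTIN4 (3 to 10), RNF144B (5 to 9), TP53I11 (2 to 13), ANKRD20A11P (3 to 22) and IGFBP3 (3 to 33).

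Among genes that fell with induction the interaction was -1.36 for ENSG00000261253, -1.31 for VIPR1, -0.97 for BSG-AS1, -0.92 for ABCD2, -0.89 for MYH15, -0.88 for CNIH3, -0.84 for ANGPTL4, -0.82 for NTSR1, -0.60 for ALDH3B1, -0.53 for SPRY4 and -0.43 for PHLDA1. Among genes that the compound raised without induction it was -1.27 for LINC02593, -0.82 for SAMD15, -0.52 for PNRC1, -0.49 for SYNM, -0.48 for MXD4 and -0.48 for PDCD4. Among genes that it lowered without induction it was 1.07 for COL27A1, 0.72 for ANKRD13B, 0.55 for TYMS, 0.53 for SLC29A1, 0.52 for PA2G4, 0.51 for MGME1 and 0.36 for SLC2A1.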

How the results depend on the processing

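Counts are given in the order interaction higher, interaction lower, needing induction, shared, and moved only without induction, against 170, 30, 180, 352 and 14 as reported. With no filter on low counts they were 260, 156, 344, 531 and 34. The DESeq2 Wald test gave 67 lower interactions and 27 genes moved only without induction, and all 6 groups in 1 fit gave 52 lower ones. limma-voom with quality weights, chosen after seeing the data, gave 431, 200, 437, 1075 and 93, with a weight of 0.118 for the third induced DMSO library. Leaving out each library in turn gave 109 to 299, 13 to 133, 118 to 307, 145 to 860 and 3 to 65. The genes of opposite direction were 51 and those moved further with induction 25 in limma-voom, and 12 and 11 with no filter. For these changes the cause was not tested. Among uncalled values, the EP300 interaction read -0.0505 without the third induced DMSO library and up to 0.245 without another, the CREBBP interaction -0.0348 and up to 0.158, and limma-voom gave -0.0167 and -0.0148, in that order. The KAT2A interaction ranged from -0.0681 to 0.0634 over these fits, with 0.0065 without the third induced library with the compound, 0.044 without the first non-induced one with the compound, and 0.065 in limma-voom. Counts of p53 targets, S phase and mitotic genes stayed within 1.5 times in every setting run.

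With the replicate number as a block the 5 counts were 138, 24, 147, 261 and 11. Same-numbered libraries did not deviate together from their group means (r from -0.148 to 0.067 over 18 pairs). With 3 libraries a group this cannot decide whether the numbers mark pairs. The non-induced DMSO library of 9.1 M counts has a floor of 3 counts at 0.338 CPM, which limits statements on genes such as NSG1 and HES2.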
